A study of Arabidopsis thaliana with 6 samples.

Results

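The genes described here are 39 genes of salicylic acid synthesis, salicylic acid signalling and plant immunity in Arabidopsis thaliana. They were chosen by their known function, with earlier results of these data known. Each was looked up in the deposited table by symbol, synonym or locus code together with position. All 39 had a row among the 26765 rows of the table. In 37 cases that row named no other gene, and 35 of these were among the 18916 rows the authors tested. The study sequenced RNA of 3 epic2 mutant samples and 3 wild-type samples, all of the Col-0 background, each taken from the aerial parts of 17-day-old seedlings kept at 24 °C under 16 h of light. The authors' table holds 1 value per group, in FPKM (a read count normalised for transcript length and for the number of mapped reads), and names its groups epic2 and silex. The labels do not use the name silex, so silex is read here as the wild type by elimination, and every direction below is epic2 against silex. The labels name neither the gene altered in the mutant nor how the line was obtained. Spread between the 3 samples of a group cannot be shown, because the authors pooled them, and sequencing depth is unknown. In whole aerial tissue, fewer cells of a type and less RNA per cell cannot be told apart.

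Salicylic acid is a plant hormone that is made mostly through isochorismate in the plastid when a plant meets pathogens that feed on living cells. The EDS1 complexes and intracellular receptors act upstream of its synthesis, the NPR proteins bind it and work with TGA transcription factors, and secreted pathogenesis-related (PR) proteins are among the final products. Because constant activation costs growth and can kill cells, the pathway also has repressors and cell death regulators that keep it low in healthy leaves.

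In epic2 the listed genes were more often lower than higher. Of the 35 genes tested in a row of their own, 9 fell, 3 rose and 23 did not pass the authors' q of 0.05. Over all tested rows 18.3% were called, 8.80% as lower and 9.51% as higher in epic2, whereas of the listed genes 25.7% were called lower and 8.57% higher. The genes that fell were LURP1, ACD6, CBP60G, NIMIN1, DMR6, NDR1, PR2, NPR1 and RIN4, and those that rose were PR5, ICS2 and PBS3. Of these, 4 fell and 2 rose by at least 2-fold, a size of change called in 2.27% (lower) and 1.03% (higher) of all tested rows. At least 1.5-fold changes were called lower in CBP60G, DMR6, NIMIN1, LURP1, NDR1 and ACD6 (6 genes or 17.1%, against 4.92% of all tested rows) and higher in the same 3 genes that rose (8.57%, against 2.33%), so NPR1, PR2 and RIN4 had smaller changes. After Bonferroni adjustment over all tested rows CBP60G, DMR6, LURP1 and ACD6 remained lower (4 genes or 11.4%, against 2.71% of all tested rows) and PR5 higher (2.86%, against 1.70%). The calls of ICS2, PBS3, NPR1, NIMIN1, PR2, NDR1 and RIN4 were lost under that adjustment. At a q of 0.10 15 listed genes were lower (42.9%, against 10.8% of all tested rows) and 3 higher (8.57%, against 11.8%). The listed genes had means of 0.478 to 65.7 FPKM, and among all tested rows of 1 to 70 FPKM 9.16% were called lower and 7.48% higher. The median change on the scale of log2(FPKM + 1) was -0.27 over the listed genes and 0.01 over all tested rows, and 25 of the 35 genes were below 0, as were 47.8% of all tested rows. The list, chosen for this work with earlier results known, is described by these counts without a test of its own.

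**Figure D1:**
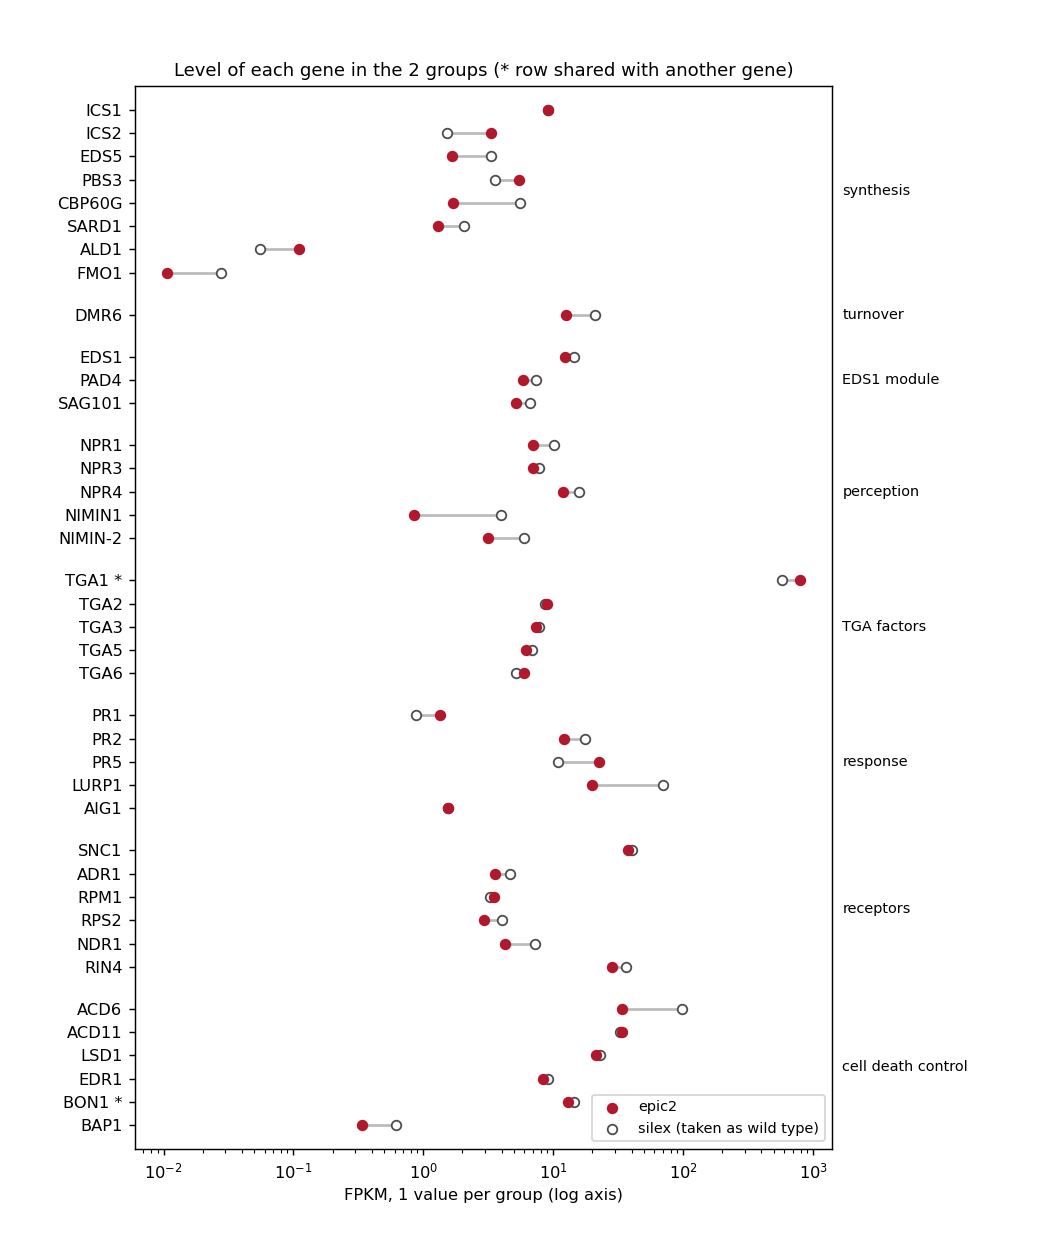
Levels of the 39 genes in FPKM on a log axis, grouped by role, with a filled point for epic2 and an open point for silex (1 pooled value per group, no error available); asterisks mark rows shared with another gene. The widest gaps among tested genes with epic2 on the low side are those of NIMIN1, LURP1, CBP60G and ACD6, while PR5 and ICS2 have epic2 on the high side.

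The promoters of NIMIN1 and CBP60G are shown because both genes are among the 4 largest called changes. Each is the 250 bases before the start of the gene in the RefSeq annotation of TAIR10.1, read 5′ to 3′ on the gene's strand, in lower case. Each was searched on both strands for TTGAC (the core of the W box bound by WRKY factors), TGACG (the core bound by TGA factors), CGCGT (the core bound by CAMTA factors) or GAAATTT (the core of the element bound by CBP60g and SARD1). TTGAC and TGACG can overlap. A match would stand in capitals, and neither window holds one.
NIMIN1 (chr1:498540-498789, minus strand): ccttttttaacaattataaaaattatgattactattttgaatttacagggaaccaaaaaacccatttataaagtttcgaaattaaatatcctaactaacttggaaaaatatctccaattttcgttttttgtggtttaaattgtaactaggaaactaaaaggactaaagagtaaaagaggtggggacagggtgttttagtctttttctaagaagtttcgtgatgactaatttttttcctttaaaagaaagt
CBP60G (chr5:9475429-9475678, plus strand): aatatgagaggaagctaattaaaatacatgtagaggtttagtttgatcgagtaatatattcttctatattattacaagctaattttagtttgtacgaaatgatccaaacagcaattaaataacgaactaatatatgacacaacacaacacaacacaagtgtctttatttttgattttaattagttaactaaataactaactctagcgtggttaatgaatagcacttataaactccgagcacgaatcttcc

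The RefSeq starts of LURP1 and ACD6 lie 355 and 281 bases from the starts of the authors' rows, so their windows depend on the gene model and are not printed. Over the 300 bases from 250 before to 50 after the start, TTGAC occurred in 20 of 39 listed genes (51.3%) and in 50.5% of 27443 protein-coding genes, and TGACG in 9 of 39 (23.1%) and in 23.1%. CGCGT occurred in 4 of 39 (10.3%), against 8.70% of all, and GAAATTT in 7 of 39 (17.9%), against 14.2%. Of the 9 genes that fell, 3 held TTGAC, 2 TGACG, 1 CGCGT and 1 GAAATTT. Of these 9 genes 0 held TTGAC in the 250 bases before the start alone (44.9% of all genes), and 5 did where the start of the authors' row set the 300 bases (49.3% of all). The count in the genes that fell thus changed with the window. A match of so few letters describes the sequence and shows no binding.

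Among the genes of synthesis the main enzyme gene did not pass, while its paralog and a downstream enzyme gene rose. ICS1, the isochorismate synthase that makes most salicylic acid under attack (listed by the authors as EDS16; AT1G74710, chromosome 1, 28070295 to 28074148, TAIR10 coordinates here and below), stood at 9.07 FPKM in epic2 and 9.04 FPKM in silex. Its log2 fold change was 0.01 with q = 0.987 in the authors' deposited table, and the standard error implied by the test statistic gave a 95% interval from -0.25 to 0.26. ICS2 (AT1G18870, chromosome 1, 6515429 to 6519282), the paralog known for a small contribution, stood at 3.32 FPKM in epic2 and 1.53 FPKM in silex. It rose with a log2 fold change of 1.12 ± 0.25 (implied standard error) and q = 9.99e-05 by the authors' deposited table. The level of ICS1 was thus 2.73 times that of ICS2 in epic2 and 5.91 times in silex.

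PBS3, which joins glutamate to isochorismate on the way to salicylic acid, stood at 5.42 FPKM in epic2 and 3.57 FPKM in silex. It rose with a log2 fold change of 0.60 ± 0.18 (implied standard error) and q = 0.00515 by the authors' deposited table. EDS5, the transporter that moves isochorismate out of the plastid, was at 1.66 FPKM in epic2 and 3.31 FPKM in silex. Although its level differed by nearly as much as that of ICS2, EDS5 did not pass, with a log2 fold change of -0.99 ± 0.50 (implied standard error) and q = 0.143 by the authors' deposited table. The interval of its row also spans AT4G39040 and an antisense transcript.

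Of the transcription factors that switch on ICS1, CBP60G fell and SARD1 did not pass. CBP60G, a calmodulin-binding activator of ICS1 (AT5G26920, chromosome 5, 9475682 to 9478751), stood at 1.70 FPKM in epic2 and 5.50 FPKM in silex. It fell with a log2 fold change of -1.69 ± 0.26 (implied standard error) and q = 2e-09 by the authors' deposited table. SARD1, which acts beside CBP60G on the same targets, stood at 1.29 FPKM in epic2 and 2.07 FPKM in silex and missed the threshold (log2 fold change -0.68 and q = 0.0772 by the authors' deposited table). The SARD1 level was 0.758 times that of CBP60G in epic2 and 0.377 times in silex. ALD1 and FMO1, whose enzymes make the mobile immune signal N-hydroxypipecolic acid, were too low for the authors to test. ALD1 was at 0.111 FPKM in epic2 and 0.0558 FPKM in silex, and FMO1 at 0.0106 FPKM in epic2 and 0.0276 FPKM in silex. DMR6, which hydroxylates salicylic acid and thereby removes it, was the listed gene of turnover and fell. It stood at 12.6 FPKM in epic2 and 21.1 FPKM in silex, with a log2 fold change of -0.74 ± 0.13 (implied standard error) and q = 1.29e-07 by the authors' deposited table.

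The EDS1 module did not pass in any of its genes. EDS1 is a lipase-like protein that pairs with PAD4 or SAG101 to relay signals from intracellular receptors. EDS1 (AT3G48090) stood at 12.4 FPKM in epic2 and 14.4 FPKM in silex, a log2 fold change of -0.22 with a 95% interval from -0.50 to 0.06 and q = 0.285 in the authors' deposited table. PAD4 (AT3G52430) stood at 5.82 FPKM in epic2 and 7.34 FPKM in silex, a log2 fold change of -0.33 with a 95% interval from -0.63 to -0.04 and q = 0.0933 in the authors' deposited table. SAG101 stood at 5.19 FPKM in epic2 and 6.64 FPKM in silex (q = 0.458 in the authors' deposited table). All 3 were nominally lower in epic2. A second copy of EDS1, AT3G48080 or EDS1B, lies 183 bases from the row of EDS1 on chromosome 3. It was at 0.458 FPKM in epic2 and 1.39 FPKM in silex and fell (log2 fold change -1.60 ± 0.39 as implied standard error and q = 0.000469 by the authors' deposited table). Its mean of 0.923 FPKM was low, and its call was lost with a minimum mean of 1 FPKM and after Bonferroni adjustment. The copies are alike in sequence, so the division of reads between them is uncertain.

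Of the genes of salicylic acid perception 2 fell, 3 did not pass and all 5 had a negative fold change. Over all tested rows 8.80% were called lower and 47.8% had a negative change. NIMIN1, a small protein that binds NPR1 and restrains PR1 expression (AT1G02450, chromosome 1, 497976 to 498516), stood at 0.855 FPKM in epic2 and 3.97 FPKM in silex. It fell with a log2 fold change of -2.22 ± 0.64 (implied standard error) and q = 0.00408 by the authors' deposited table. This was the largest fold among the called genes and also the least precise. NIMIN-2, its relative that is induced early by salicylic acid, stood at 3.13 FPKM in epic2 and 5.90 FPKM in silex and missed the threshold (q = 0.0585 in the authors' deposited table). NIMIN-2 was 3.66 times the level of NIMIN1 in epic2 and 1.49 times in silex.

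NPR1, the receptor and coactivator at the centre of the pathway, had 2 rows with the same name and interval (chromosome 1, 23850572 to 23855630), which also covers AT1G64270 and an antisense transcript. The row with the higher values stood at 7.04 FPKM in epic2 and 10.07 FPKM in silex and fell (log2 fold change -0.52 ± 0.15 as implied standard error and q = 0.00349 by the authors' deposited table). The other row stood at 5.003 FPKM in epic2 and 5.93 FPKM in silex and did not pass (log2 fold change -0.25 and q = 0.465 by the authors' deposited table). The table does not say which row holds the reads of NPR1 itself, so its call rests on that choice. The receptors NPR3 and NPR4, which act as repressors until salicylic acid binds, did not pass. NPR3 stood at 6.96 FPKM in epic2 and 7.75 FPKM in silex, and NPR4 at 11.9 FPKM in epic2 and 15.7 FPKM in silex (q = 0.463 and q = 0.0760 in the authors' deposited table).

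The TGA factors, which bring the NPR proteins to promoters, did not pass where their row named no other gene. TGA2, TGA3, TGA5 and TGA6 lay between 5.99 and 8.97 FPKM in epic2 and between 5.19 and 8.69 FPKM in silex. The strongest of these differences, that of TGA6, had a log2 fold change of 0.21 with a 95% interval from -0.32 to 0.73 and q = 0.650 in the authors' deposited table. The interval of the TGA6 row on the chromosome also spans AT3G12260, AT3G02485 and AT3G02495. The rows of the neighbours TGA2 and TGA5 on chromosome 5 are 226 bases apart, and neither passed. TGA1 shares its row with AT5G65220. That row stood at 796.9 FPKM in epic2 and 580.7 FPKM in silex and was called higher, and no value of TGA1 itself can be taken from it.

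The response genes went in different directions. LURP1, which is induced late during infection by downy mildew and needed for basal defence (AT2G14560, chromosome 2, 6213972 to 6215901), stood at 19.7 FPKM in epic2 and 69.3 FPKM in silex. It fell with a log2 fold change of -1.82 ± 0.17 (implied standard error) and a q listed as 0 by the authors' deposited table. PR2, a secreted glucanase (listed as BGL2; AT3G57260, chromosome 3, 21188517 to 21189859), stood at 12.05 FPKM in epic2 and 17.6 FPKM in silex and fell (log2 fold change -0.55 ± 0.14 as implied standard error and q = 0.000554 by the authors' deposited table). PR5, a thaumatin-like protein of the same response (AT1G75040, chromosome 1, 28177703 to 28178940), stood at 22.5 FPKM in epic2 and 10.8 FPKM in silex and rose (log2 fold change 1.05 ± 0.15 as implied standard error and q = 5.57e-11 by the authors' deposited table). PR2 was at 0.535 times the level of PR5 in epic2 and at 1.62 times in silex, so the order of this pair was turned round between the groups.

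PR1, a small secreted protein used as the standard marker of salicylic acid signalling (AT2G14610, chromosome 2, 6241704 to 6242463), was low in both groups, at 1.33 FPKM in epic2 and 0.873 FPKM in silex. It did not pass, and its log2 fold change of 0.61 had a wide 95% interval from -0.48 to 1.70 (q = 0.490 in the authors' deposited table). AIG1, a GTP-binding protein gene induced by a bacterial effector, was at 1.54 FPKM in epic2 and 1.54 FPKM in silex. LURP1 and PR1 are 25802 bases apart on chromosome 2. The 1 row between them is that of PRB1, a basic relative of PR1, picked here for its position after its values were seen. It stood at 2.31 FPKM in epic2 and 4.54 FPKM in silex (log2 fold change -0.97 and q = 0.0269 by the authors' deposited table).

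Of 6 genes of intracellular immune receptors and their partners, 2 fell (33.3%, against 8.80% of all tested rows) and 4 did not pass. NDR1, a membrane protein that the receptors RPM1 and RPS2 need, stood at 4.22 FPKM in epic2 and 7.25 FPKM in silex. It fell with a log2 fold change of -0.78 ± 0.25 (implied standard error) and q = 0.00894 by the authors' deposited table. RIN4, the protein whose modification by bacterial effectors RPM1 and RPS2 detect, stood at 28.4 FPKM in epic2 and 36.2 FPKM in silex. It fell with a log2 fold change of -0.35 ± 0.11 (implied standard error) and q = 0.0102 by the authors' deposited table, the highest q among the called genes. The receptor RPS2 itself was just outside the threshold, at 2.91 FPKM in epic2 and 4.01 FPKM in silex (log2 fold change -0.46 and q = 0.0581 by the authors' deposited table), in an interval that also covers CK1 and an antisense transcript. RPM1 stood at 3.47 FPKM in epic2 and 3.26 FPKM in silex (log2 fold change 0.09, 95% interval from -0.23 to 0.40). The helper receptor ADR1 stood at 3.56 FPKM in epic2 and 4.63 FPKM in silex (q = 0.0633 in the authors' deposited table). SNC1, a receptor whose overactivity stunts plants, stood at 37.5 FPKM in epic2 and 40.1 FPKM in silex (log2 fold change -0.10, 95% interval from -0.29 to 0.10). SNC1 lies in a cluster of near-identical receptor genes, among which reads may be divided.

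ACD6 was the called gene among the regulators of cell death. It encodes an ankyrin-repeat membrane protein that amplifies salicylic acid signalling, and overactive forms cause lesions and dwarfing. ACD6 (AT4G14400, chromosome 4, 8294446 to 8298602) stood at 33.5 FPKM in epic2 and 97.9 FPKM in silex, the highest level of any listed gene with a row of its own in silex. It fell with a log2 fold change of -1.55 ± 0.09 (implied standard error) and a q listed as 0 by the authors' deposited table, the smallest standard error of the list. The genes that hold cell death back did not pass. ACD11, a lipid transfer protein, stood at 33.8 FPKM in epic2 and 32.7 FPKM in silex, LSD1, a zinc finger protein, at 21.3 FPKM in epic2 and 22.9 FPKM in silex, and EDR1, a protein kinase, at 8.31 FPKM in epic2 and 9.12 FPKM in silex. Their log2 fold changes were 0.05, -0.11 and -0.13 in the authors' deposited table. BAP1, a partner of BON1, was at 0.339 FPKM in epic2 and 0.617 FPKM in silex and too imprecise to read, with a 95% interval from -2.50 to 0.78 on the log2 scale. BON1, a copine that represses SNC1, shares its row with AT5G61910, and that row did not pass at 13.1 FPKM in epic2 and 14.3 FPKM in silex.

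**Figure D2:**
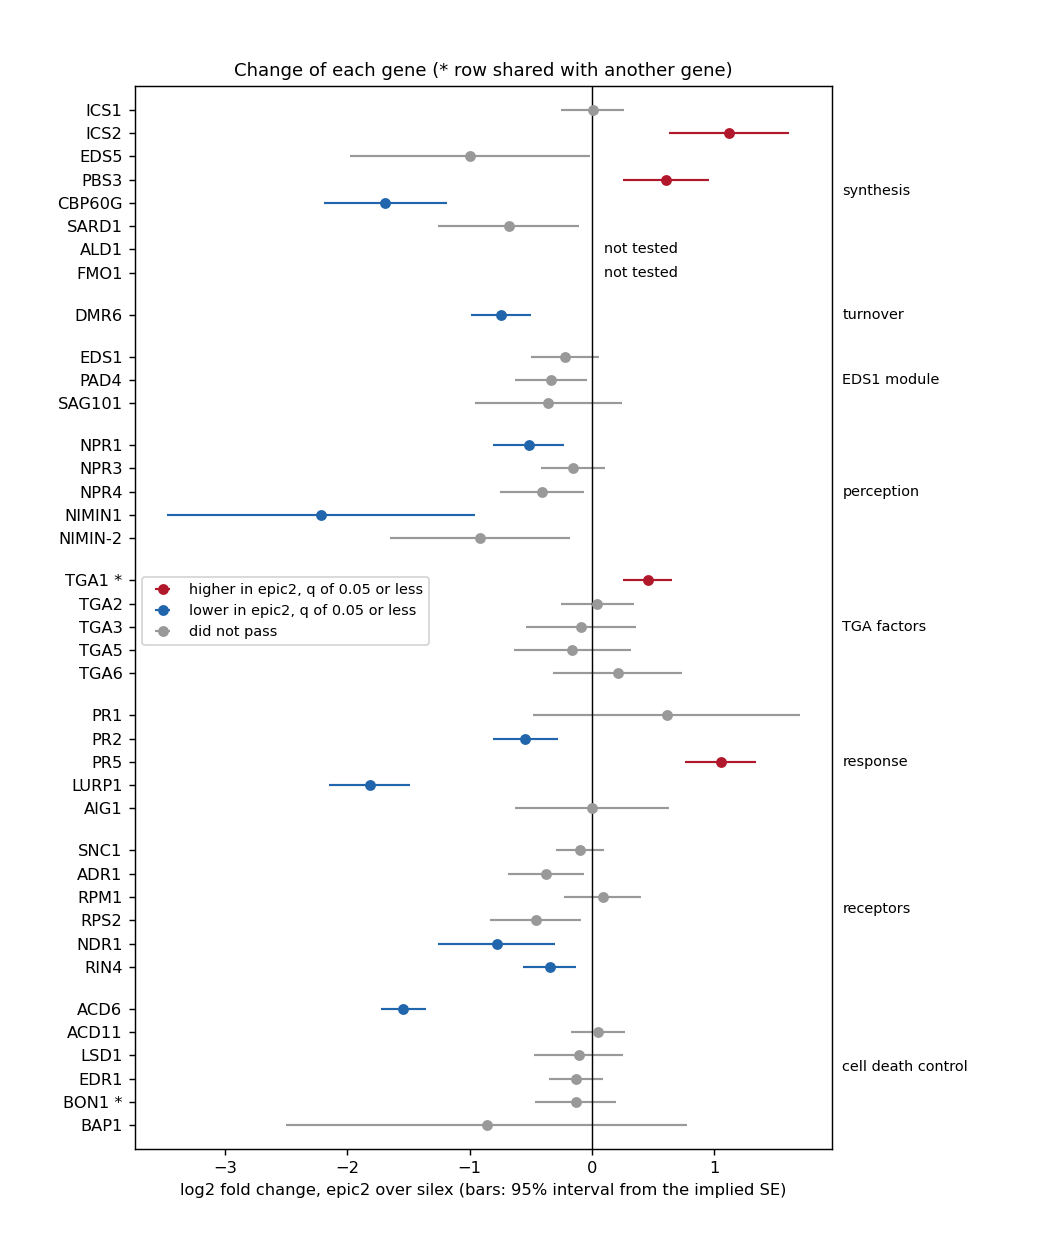
Log2 fold change of epic2 over silex for each tested gene, with bars for the 95% interval from the standard error implied by the authors' test statistic; colours mark genes that passed the authors' q of 0.05. The intervals of LURP1, ACD6 and CBP60G end at -1.48, -1.36 and -1.19, and that of PR5 begins at 0.76.

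The size of each change can be read against other tested rows whose mean level lay within 2-fold of the gene's own. On the scale of log2(FPKM + 1), only 6 other rows among 4142 fell as far as LURP1, and 8 among 2959 as far as ACD6. For CBP60G 53 other rows among 4741 fell as far, for NIMIN1 33 among 3783, and for PR5 35 among 6876 rose as far. For RIN4 427 other rows among 5149 fell as far, and for PBS3 230 among 5312 rose as far. Counted in either direction, changes as large as those of RIN4 and PBS3 were seen in 17.4% and 13.4% of rows of similar level. For LURP1 and ACD6 these shares were 0.290% and 0.439%. LURP1 and ACD6 thus lay at the edge of the distribution for their level, and RIN4 and PBS3 within its outer part.

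**Figure D3:**
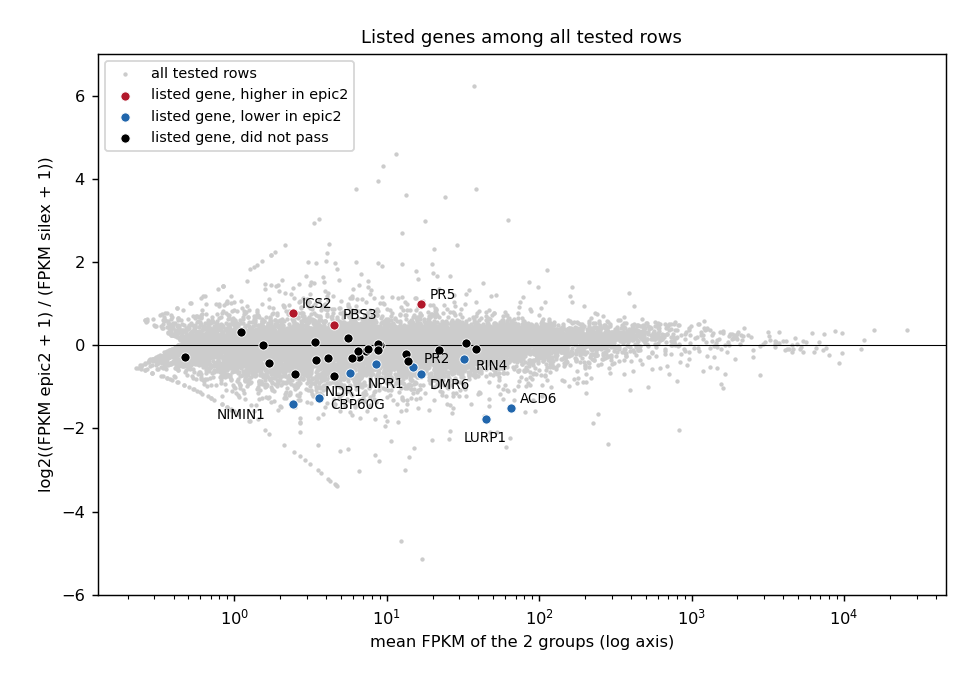
Change on the scale of log2(FPKM + 1), which damps the changes of low genes, against mean FPKM of both groups on a log axis, for all tested rows (grey) and the 35 listed genes tested in a row of their own (coloured by call). LURP1 is at -1.77, ACD6 at -1.52 and PR5 at 0.99, against a median of 0.01 for all tested rows.

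Other genes of the pathway, taken from 6 lists of 122 genes chosen by function, also included more genes called lower than higher. Of 97 tested in a row of their own, 22 fell, 5 rose and 70 did not pass. The share called lower was 22.7%, against 8.80% of all tested rows, and that called higher 5.15%, against 9.51%. Most lists draw on the same functions as the 39 genes, and all were made with earlier results of these data known. Surface receptors and the kinase cascade are not among the roles of the 39 genes. Of 23 surface receptors and members of the kinase cascade 8 fell (34.8%, against 8.80% of all tested rows) and 0 rose. Their median change was -0.20 on the scale of log2(FPKM + 1). FLS2, the receptor of bacterial flagellin, stood at 1.84 FPKM in epic2 and 5.004 FPKM in silex. MKK1, a kinase that acts with MPK4 to restrain immunity, stood at 5.31 FPKM in epic2 and 12.4 FPKM in silex. The receptor-like protein RLP23 and its adaptor kinase SOBIR1 fell too, to 2.05 FPKM in epic2 against 3.78 FPKM in silex and to 15.8 FPKM in epic2 against 22.1 FPKM in silex.

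Of 13 response genes 4 fell and 2 rose (30.8% and 15.4%, against 8.80% and 9.51% of all tested rows). The chitinase gene PR3, a marker of ethylene and jasmonate rather than salicylic acid, stood at 20.5 FPKM in epic2 and 4.56 FPKM in silex and had the largest rise (log2 fold change 2.17 ± 0.18 as implied standard error and q listed as 0 by the authors' deposited table). PR4, often used beside PR3, fell to 15.8 FPKM in epic2 against 31.4 FPKM in silex, so the members of this pair too went in opposite directions. LLP1, a lectin-like protein of systemic resistance (AT5G03350), fell to 33.2 FPKM in epic2 against 82.1 FPKM in silex.

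Of 13 further genes of cell death and lesions 4 fell and 1 rose (30.8% and 7.69%, against 8.80% and 9.51% of all tested rows). LOL1, a relative of LSD1 that promotes cell death, fell to 15.4 FPKM in epic2 against 27.7 FPKM in silex. The syntaxins SYP121 and SYP122, which serve secretion at sites of attack, fell to 12.1 FPKM in epic2 against 18.6 FPKM in silex and to 3.25 FPKM in epic2 against 6.25 FPKM in silex. ACD2, which breaks down a chlorophyll product, rose to 77.2 FPKM in epic2 against 59.4 FPKM in silex. Of 21 intracellular receptors and partners 0 rose and 3 fell (14.3%, against 8.80% of all tested rows). These were the receptor ZAR1, at 21.9 FPKM in epic2 and 32.8 FPKM in silex, the helper ADR1-L1, at 10.7 FPKM in epic2 and 16.0 FPKM in silex, and the chaperone partner SGT1A, at 25.3 FPKM in epic2 and 36.4 FPKM in silex.

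Of 15 cofactors of perception 2 fell and 0 rose, a share of 13.3% called lower, against 8.80% of all tested rows. TGA4, the closest relative of TGA1, fell to 10.9 FPKM in epic2 against 15.9 FPKM in silex. The interval of its row also spans AT5G10040, AT5G10050, AT5G10060 and AT5G10070, so the change may not be that of TGA4 alone. CBP60A, which represses immunity, fell to 18.4 FPKM in epic2 against 25.02 FPKM in silex. Of 12 genes of salicylic acid and pipecolate metabolism 1 fell and 2 rose (8.33% and 16.7%, against 8.80% and 9.51% of all tested rows). PAL4, a phenylalanine ammonia-lyase, fell to 1.96 FPKM in epic2 against 4.51 FPKM in silex. PAL1 of the same family rose to 92.7 FPKM in epic2 against 74.1 FPKM in silex, and AGD2, an aminotransferase of lysine synthesis related to ALD1, rose to 102.0 FPKM in epic2 against 78.6 FPKM in silex. The glucosyltransferases UGT74F1 and UGT74F2, which store salicylic acid as sugar conjugates, share a single row, named here after its values were seen. It was called lower, at 8.48 FPKM in epic2 and 16.4 FPKM in silex. The interval of that row also spans AT2G43830, AT2G43850 and AT2G09505, so the change may not be that of the glucosyltransferases alone.

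**Figure D4:**
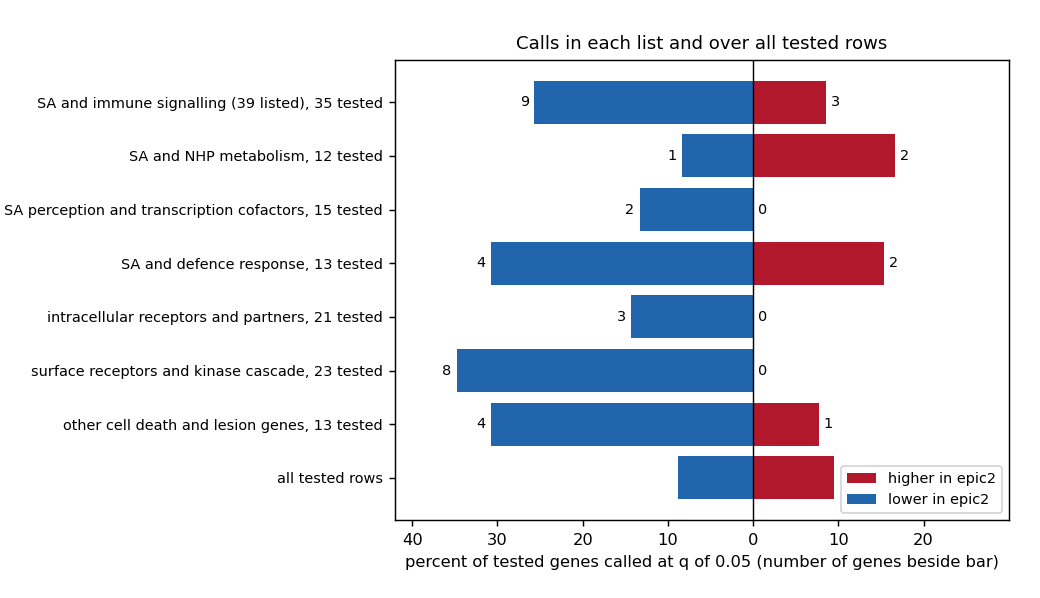
Percent of tested genes called higher (right) or lower (left) in epic2 at the authors' q of 0.05 in the 39 listed genes, in 6 other lists of the pathway and over all tested rows, with the number of genes beside the bars of each list. Calls to the lower side reach 34.8% among surface receptors and kinases and 25.7% among the listed genes, against 8.80% of all tested rows.

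Leaf markers were high and flower markers low. The 5 leaf markers lay between 165.7 and 10695 FPKM and none was called. The 5 flower markers summed to 3.11 FPKM in epic2 and 2.50 FPKM in silex. The 5 root markers summed to 55.1 FPKM in epic2 and 132.1 FPKM in silex, nearly all from PYK10, a beta-glucosidase also made in young shoots, which fell to 51.8 FPKM in epic2 against 130.9 FPKM in silex. CASP1 and FRO2 rose to 1.52 and 1.74 FPKM in epic2 against 0.252 and 0.857 FPKM in silex. IRT1 and NRT2.1 were too low for the authors to test. IRT1 was at 0.0309 FPKM in epic2 and listed at 0 in silex, while NRT2.1 was at 0.0574 FPKM in epic2 and 0.0967 FPKM in silex. Any part of root tissue in the results above was not tested.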

How the data were processed

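The 6 libraries, 3 per group, were made with TruSeq version 2 reagents and read as single reads (per the labels' protocols). The submitters' processing notes list TopHat, Cufflinks, Cuffdiff and TAIR10 and give no versions. Per the file headers, the authors deposited for each row 1 FPKM value per group, the log2 fold change of epic2 over silex, a test statistic (a score of opposite sign to the fold change), a p-value and a q-value. They tested 18916 rows. Depth is unknown. The sample titles call the 3 samples of each group biological replicates. The labels do not say whether their plants were grown apart, so how much spread between plants the p-values reflect is unknown.

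The implied standard error is the fold change divided by the test statistic, and 95% intervals use the normal distribution. Rows were matched by name and position to the RefSeq annotation of TAIR10.1, and all 16481 rows named by a single known locus code overlapped that gene. Of 2 rows named NPR1 the one with the higher mean was used. Row intervals of 6 listed genes with a row of their own (EDS5, SARD1, NPR1, NPR4, TGA6 and RPS2) overlap other genes, and strand is not stated. Among the other pathway genes named, the same holds for EDS1B, PR3, TGA4, CBP60A, ZAR1, ADR1-L1, MKK1, RLP23 and SOBIR1. The shared row of UGT74F1 and UGT74F2 also overlaps further genes. Left out of counts were TGA1, BON1 and 17 of the 122 other pathway genes (rows naming several genes, or for MC1 no row matched), and 8 more of the 122 that the authors did not test.

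A gene was called at the authors' q of 0.05. Full values are given for called genes and for ICS1, EDS1, PAD4, NPR1, PR1, PR2 and PR5, and levels for up to 4 called genes of each other list, by change on log2(FPKM + 1). The members, lists and rules were chosen with earlier results of these data known. A Benjamini-Hochberg step was tested on simulated data. Software was Python 3.11.15 with numpy 2.4.6, pandas 2.3.3, matplotlib 3.10.9 and scipy 1.17.1.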

Additional observations from a re-analysis of the deposited data

How the results depend on the processing

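The authors' pooled table limits these results, since no spread between samples and no depth can be read from it. No paired analysis was possible because the table has 1 value per group, and leaving out samples was not run for the same reason. At a q of 0.10 15 listed genes were lower (10.8% of all tested rows), PAD4 among them. After Bonferroni adjustment 4 were lower and 1 was higher (2.71% and 1.70% of all tested rows), without ICS2, PBS3, NPR1, NIMIN1, PR2, NDR1 and RIN4. With a 1.5-fold minimum 6 were lower (4.92% of all), without NPR1, PR2 and RIN4, and with a 2-fold minimum 4 (2.27% of all), without DMR6 and NDR1 too, while PBS3 was lost among those that rose. Of the 97 other pathway genes tested in a row of their own, 7 were lower and 1 higher after Bonferroni adjustment (2.71% and 1.70% of all tested rows). With a 1.5-fold minimum 11 were lower and 2 higher (4.92% and 2.33% of all). With a 2-fold minimum 5 were lower and 2 higher (2.27% and 1.03% of all). On the gene's strand alone TTGAC was in 10 of 39 listed genes (25.6%, against 29.0% of all genes) and TGACG in 5 (12.8%, against 11.9%). The cause of these shifts is fewer or more genes passing a changed threshold, or fewer strands read. At a q of 0.01 RIN4 no longer passed. With Benjamini-Hochberg adjustment over all tested rows each of the 36 genes named by the rule above kept its side of the threshold. The other NPR1 row, shared rows and windows set by the authors' rows were settings added after seeing the data. With the other NPR1 row 8 listed genes were lower (8.80% of all tested rows). Counting shared rows gave 9 lower and 4 higher (8.80% and 9.51% of all tested rows). The gene gained was TGA1, in the row it shares with AT5G65220. With windows set by the authors' rows TTGAC was in 20 and TGACG in 12 of 37 genes, against 49.3% and 25.1% of all. The median change of the listed genes stayed negative under each pseudocount, filter and centring run, between -0.33 and -0.25.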
